A study of Mus musculus with 8 samples.

Results

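Disallowed genes are genes that most cells of the body use and that mature beta cells keep at a very low level. Silencing of lactate dehydrogenase A and of the lactate and pyruvate carrier MCT1 directs pyruvate from glucose into the mitochondria and keeps circulating lactate and pyruvate from triggering insulin release, and the replacement of hexokinase 1 by glucokinase keeps glucose use in step with blood glucose. Isolated islets also hold alpha, delta, endothelial and immune cells, and picked islets can carry fragments of acinar, duct and connective tissue, and these cells use several of the disallowed genes. This account follows 10 of them across the islets of 7 mice: *Ldha*, *Slc16a1*, *Hk1*, *Pdgfra*, *Oat*, *Igfbp4*, *Maf*, *Smad3*, *Acot7* and *Rest*. They were found by symbol, through the accession printed for each probe, and every probe of a gene was kept, which gave 15 of the 55681 probes on the array and 10 of the 21154 genes that could be named.

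Hand-picked islets gave total RNA for 1-colour Agilent arrays read with Cy3. The study asked how loss of the cannabinoid receptor CB1R from beta cells alters islets. β-CB1R-/- mice (n = 3) carried *Cnr1* flox/flox together with MIP-Cre/ERT, a tamoxifen-inducible Cre under the mouse insulin promoter, and β-CB1R+/+ mice (n = 4) were *Cnr1* flox/flox littermates without the transgene. Both genotypes were male C57BL/6 mice on a standard diet and received tamoxifen, so that floxed *Cnr1*, tamoxifen and diet were shared, whereas the transgene, which is generally described as carrying a growth hormone minigene, was present in the knockout mice only and cannot be told apart from the deletion. The age of the array mice was not given, and the labels' text on the animals speaks of a global knockout where the series' title and design name the beta-cell-specific one.

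Intensities are given on the log2 scale after each array's 75th percentile was set to 0, a value that can be compared between mice for 1 probe but not between probes. Mice are called β-CB1R+/+ 1 to 4 and β-CB1R-/- 1 to 3, and the 2 repeat arrays of β-CB1R-/- 2 were averaged. Each array had between 33304 and 39988 probes well above background, and all 8 arrays lay on 1 slide, one genotype on each side, and effects of position and of genotype cannot be told apart. The 39165 probes that were well above background in at least 3 mice were compared with limma. The targeted gene *Cnr1* had intensities of -1.11, -0.77, -0.53 and -0.02 in β-CB1R+/+ 1 to 4 and of -2.30, -3.13 and -2.28 in β-CB1R-/- 1 to 3. Its groups did not overlap, and the log2 fold change was -1.97 (standard error 0.33, limma adjusted p = 0.193; exact permutation test, two-sided p = 0.0286, the smallest that 4 mice against 3 allow).

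None of the 10 disallowed genes differed between the genotypes past the spread between mice. Of their 15 probes, 14 were compared and 11 were well above background on every array. An adjusted limma p under 0.05 was reached by 0 of the 14 (against 0.11% of all compared probes), an unadjusted limma p under 0.05 by 0 (against 3.59%), and groups without overlap were found for 0 (against 4.12%). All 14 had an adjusted p of 0.999. The mean was higher in β-CB1R-/- islets for 12 of the 14 probes, where 47.7% of all compared probes were higher, and the median of the 14 log2 fold changes was 0.158 against -0.0167 over all compared probes. This tilt moved with single mice: 7 of 14 were higher without β-CB1R+/+ 2 and 5 of 14 without β-CB1R-/- 1, but 13 of 14 without β-CB1R+/+ 4 (median 0.323) and 12 of 14 without β-CB1R-/- 3 (median 0.46). With *Col1a1* as a covariate 6 of 14 were higher (median -0.0363). Several marker lists tilted too. Higher in β-CB1R-/- islets were 13 of 14 acinar, 9 of 11 stromal and 8 of 8 macrophage genes, but 4 of 7 duct and 4 of 8 endothelial genes. Lower were 10 of 11 beta cell, 7 of 8 alpha cell and 4 of 5 delta and PP cell genes. For the genotype difference of the list mean, the exact permutation p was 0.0571 for alpha cells and 0.2 to 0.971 for the other lists named here. Genes of a list are not independent, and the part of these cells in the tilt was not tested. In such bulk samples, fewer cells of a type and less RNA per cell cannot be told apart.

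**Figure D1:**
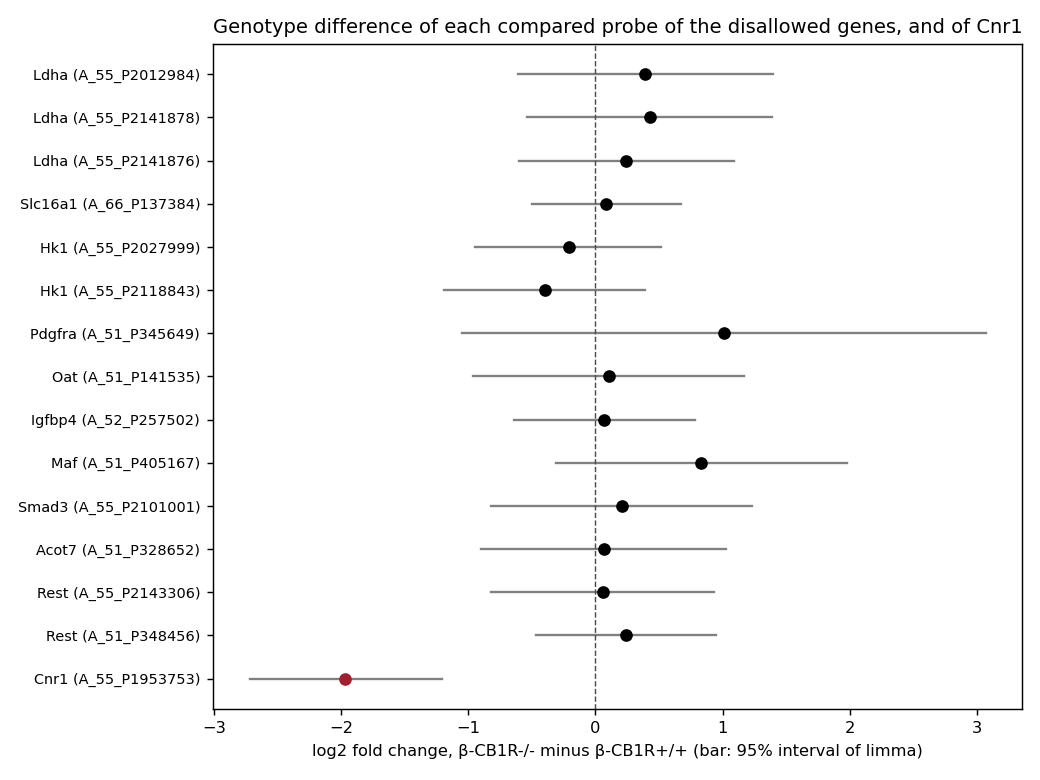
Log2 fold change (β-CB1R-/- minus β-CB1R+/+, horizontal axis) of each of the 14 compared probes of the disallowed genes and of *Cnr1*, with the 95% interval of limma as a bar. The interval of each disallowed gene includes 0, and that of *Cnr1* lies between -2.72 and -1.21.

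The first group handles glucose and lactate. *Ldha* encodes the lactate dehydrogenase subunit that favours the conversion of pyruvate to lactate, and *Slc16a1* encodes MCT1, which carries lactate and pyruvate across the plasma membrane. Their promoters are shown, together with that of *Smad3*, because *Ldha* and *Slc16a1* together open or close the lactate route and *Ldha* and *Smad3* rose and fell together over the mice. Each run is the 250 bases before the transcription start in RefSeq (GRCm38.p6), 5′ to 3′ on the gene's strand, with 3 motifs in capitals wherever their letters occur on either strand: the E-box CACGTG, the cyclic AMP response element TGACGTCA and the GC box GGGCGG (or CCGCCC). No matches overlap in these 3 runs.
*Ldha* (chr7:46845554-46845803, + strand): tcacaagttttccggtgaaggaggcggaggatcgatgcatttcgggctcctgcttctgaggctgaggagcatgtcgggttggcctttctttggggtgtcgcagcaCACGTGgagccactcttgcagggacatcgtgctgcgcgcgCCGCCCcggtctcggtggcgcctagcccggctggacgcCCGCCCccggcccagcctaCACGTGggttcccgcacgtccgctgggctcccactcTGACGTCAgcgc
*Slc16a1* (chr3:104638414-104638663, + strand): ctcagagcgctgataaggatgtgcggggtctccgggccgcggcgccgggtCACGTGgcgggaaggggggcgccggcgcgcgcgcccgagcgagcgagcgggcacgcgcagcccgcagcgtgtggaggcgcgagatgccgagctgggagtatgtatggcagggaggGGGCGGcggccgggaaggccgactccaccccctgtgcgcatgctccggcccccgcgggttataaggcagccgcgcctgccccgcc
*Smad3* (chr9:63757995-63758244, - strand): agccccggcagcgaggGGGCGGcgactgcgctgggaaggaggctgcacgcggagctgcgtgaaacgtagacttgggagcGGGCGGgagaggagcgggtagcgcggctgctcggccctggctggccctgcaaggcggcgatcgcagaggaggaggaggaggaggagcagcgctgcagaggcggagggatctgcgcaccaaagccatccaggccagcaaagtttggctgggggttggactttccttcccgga

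The *Ldha* run held 2 E-boxes, starting 145 and 48 bases before the start, 2 GC boxes at 105 and 67 bases and 1 cyclic AMP response element at 12 bases. The *Slc16a1* run held 1 E-box at 200 bases and 1 GC box at 85 bases, and the *Smad3* run held 2 GC boxes at 234 and 171 bases. Among all 32851 runs of this length in the table, 6.02% held the E-box, 1.55% the cyclic AMP response element and 32.7% the GC box. Entries were found for 8 of the 10 genes, 10 starts in all, and not for *Maf* and *Rest*. The E-box was present in 2 of the 8 genes, the cyclic AMP response element in 1 and the GC box in 4, the other GC boxes being those of *Acot7*. The table holds a second start each for *Ldha* and *Hk1*, with no match to the 3 motifs. These matches describe the letters of the runs and say nothing of the binding of a factor.

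The brightest *Ldha* probe gave 3.81, 2.81, 3.06 and 3.92 in β-CB1R+/+ 1 to 4 and 4.36, 4.16 and 2.87 in β-CB1R-/- 1 to 3. The lowest 3 values came from β-CB1R+/+ 2 and 3 and β-CB1R-/- 3, so that each genotype held high and low mice. Between the lowest and the highest mouse the level changed 2.92-fold, and the genotype difference was 0.39 on the log2 scale (standard error 0.43, limma adjusted p = 0.999; 95% interval -0.61 to 1.40, that is 0.657-fold to 2.63-fold). Both other *Ldha* probes ordered the mice nearly alike, with correlations of 0.97 to 0.98 between the 3 probes, and gave differences of 0.43 and 0.24. Repeat arrays of β-CB1R-/- 2 differed by 0.188 at the median over the 14 probes (range 0.00842 to 0.516), and each of these probes had a wider range over mice than the largest of these differences.

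*Slc16a1* was dim. Its values were -3.34, -3.35, -2.73 and -3.13 in β-CB1R+/+ 1 to 4, the first of them not well above background, and -2.73, -2.96 and -3.45 in β-CB1R-/- 1 to 3. The whole range over mice was 1.65-fold, the narrowest of the brightest probes of the 10 genes, and the log2 difference was 0.08 (standard error 0.25, 95% interval -0.50 to 0.67). The groups overlapped, with the lowest value in β-CB1R-/- 3 and the highest shared by a mouse of each genotype.

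*Hk1* encodes the high-affinity hexokinase of most tissues. Its brighter probe gave -0.57, -0.09, -0.26 and 0.74 in β-CB1R+/+ 1 to 4 and -0.33, -0.43 and -0.02 in β-CB1R-/- 1 to 3, with β-CB1R+/+ 4 above all other mice. The dimmer probe gave -1.69, -1.92, -2.55 and -2.59 and then -2.34, -2.19 and -3.23. These 2 probes disagreed on the mice (r = -0.46) though both had lower means in β-CB1R-/- islets, by -0.21 (standard error 0.32) and -0.40 (standard error 0.34), and the order of the mice for *Hk1* therefore depends on the probe.

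Of 20 compared partners of these genes (other lactate dehydrogenases, monocarboxylate carriers, hexokinases, the mitochondrial pyruvate carrier and shuttle enzymes), 0 passed the adjusted threshold, 13 were higher and 7 lower in β-CB1R-/- islets, and the median log2 fold change was 0.125. An unadjusted limma p under 0.05 was reached by 1 in each direction, where 3.59% of all compared probes had one. *Slc16a7*, which encodes the carrier MCT2, had values of 2.66, 2.74, 2.73 and 2.33 against 2.12, 1.68 and 2.33 and a log2 difference of -0.57 (standard error 0.23, limma adjusted p = 0.999), and its other probes gave -0.36 and -0.06. *Ldhd*, the D-lactate dehydrogenase of mitochondria, had 1.50, 1.40, 1.52 and 1.21 against 1.69, 2.14 and 1.80, with no overlap and a difference of 0.47 (standard error 0.20, limma adjusted p = 0.999).

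**Figure D2:**
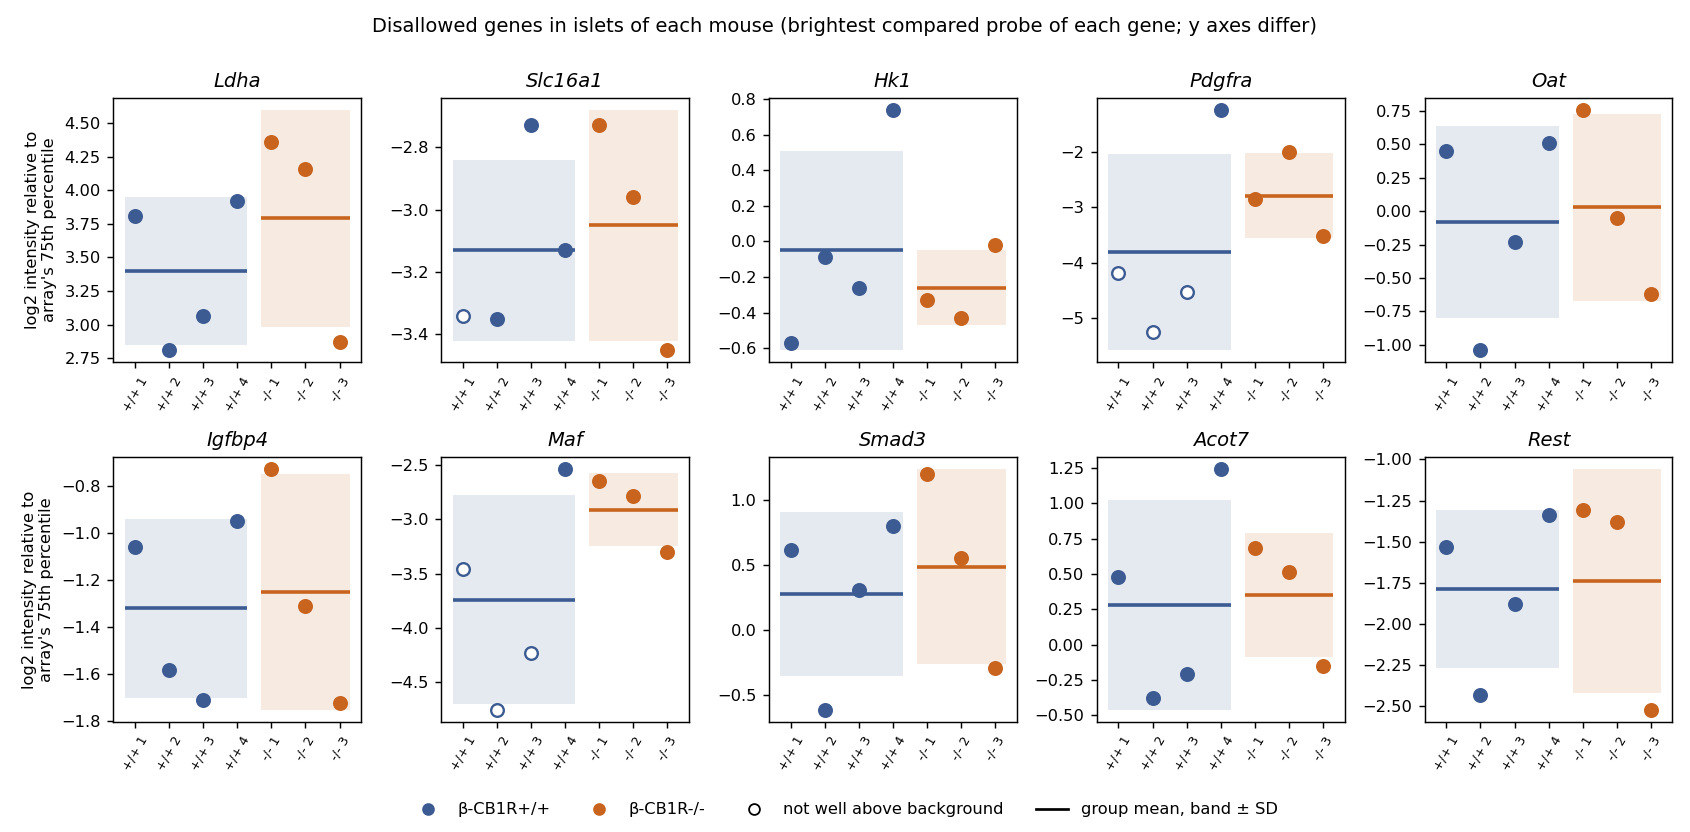
Log2 intensity relative to the array's 75th percentile (vertical axes, scaled for each gene) of the brightest compared probe of each disallowed gene in each of 7 mice. Open points are not well above background, lines are genotype means and bands are ± SD. β-CB1R+/+ 2 and β-CB1R-/- 3 are among the lower mice for most genes, and the genotypes overlap for each gene.

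*Oat* and *Acot7* act in mitochondrial amino acid and in acyl-CoA metabolism. *Oat* encodes ornithine aminotransferase, which links ornithine with glutamate and proline. Its values were 0.45, -1.04, -0.23 and 0.51 in β-CB1R+/+ 1 to 4 and 0.76, -0.05 and -0.62 in β-CB1R-/- 1 to 3. The lowest mice were again β-CB1R+/+ 2 and β-CB1R-/- 3, the range was 3.48-fold and the log2 difference was 0.11 (standard error 0.46, 95% interval -0.96 to 1.17). *Acot7*, a thioesterase that releases fatty acids from acyl-CoA, gave 0.48, -0.38, -0.21 and 1.24 and then 0.68, 0.51 and -0.15, with a difference of 0.07 (standard error 0.42, 95% interval -0.90 to 1.03). Here β-CB1R+/+ 4 was highest, and β-CB1R+/+ 2 and 3 and β-CB1R-/- 3 were lowest.

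Among 8 compared genes of ornithine and proline metabolism 5 were higher and 3 lower, 0 passed the adjusted threshold, and the median log2 fold change was 0.252. *Aldh18a1*, which makes the precursor of proline and ornithine, had 1.09, 0.59, 1.06 and 0.99 against 1.57, 1.31 and 1.37, without overlap, and a difference of 0.48 (standard error 0.20, limma adjusted p = 0.999). *Prodh*, which starts proline breakdown, gave 0.65, -1.11, 0.42 and 0.56 against 1.60, 1.43 and -0.25, low in the same 2 mice as *Oat*, with a difference of 0.80 (standard error 0.58, limma adjusted p = 0.999). Of 7 other compared acyl-CoA thioesterases 5 were higher and 2 lower, 0 passed, and the median was 0.264. *Acot2*, a mitochondrial member, differed by 0.49 (standard error 0.28) and *Acot13* by 0.26 (standard error 0.17, without overlap between the genotypes), with adjusted p = 0.999 in limma for both.

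*Pdgfra*, *Igfbp4* and *Smad3* belong to growth factor signalling. *Pdgfra* encodes the platelet-derived growth factor receptor α, which is typical of fibroblasts and other mesenchymal cells. It was not well above background in β-CB1R+/+ 1, 2 and 3, where it gave -4.19, -5.26 and -4.54, and reached -1.24 in β-CB1R+/+ 4. The β-CB1R-/- mice gave -2.85, -2.01 and -3.52, all well above background and all between β-CB1R+/+ 4 and the other 3. Its range, 16.1-fold between measured values, was the widest of the 10 genes, and its lower end lay in mice where the probe was not well above background. The log2 difference of 1.01 (standard error 0.89, 95% interval -1.05 to 3.07) moved widely with the processing and with single mice: it was 0.118 after a normexp background correction, 0.531 without β-CB1R+/+ 2 and 1.87 without β-CB1R+/+ 4. Without β-CB1R+/+ 4 the unadjusted limma p was under 0.05 (adjusted p = 0.817), but the 3 control mice left were all not well above background, so that the size of this value has no firm lower side, and the left-out mouse was the highest of all 7.

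*Igfbp4*, a secreted protein that binds insulin-like growth factors, gave -1.06, -1.58, -1.71 and -0.95 in β-CB1R+/+ 1 to 4 and -0.73, -1.31 and -1.72 in β-CB1R-/- 1 to 3, with a difference of 0.07 (standard error 0.31, 95% interval -0.64 to 0.78). *Smad3*, which carries the transforming growth factor β signal to the nucleus, gave 0.62, -0.61, 0.31 and 0.80 and then 1.20, 0.56 and -0.29, with a difference of 0.21 (standard error 0.44, 95% interval -0.82 to 1.23). A second *Smad3* probe was well above background on 0 arrays and was not compared. For both genes β-CB1R-/- 1 was highest, and β-CB1R+/+ 2 and β-CB1R-/- 3 were among the lowest 3.

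The partners of these genes also gave 0 calls past the adjusted threshold. Of 5 compared ligands and receptors of the platelet-derived growth factor family 1 was higher and 4 lower (median -0.034), of 12 transforming growth factor β and Smad genes 6 were higher and 6 lower (median -0.00227), and of 8 insulin-like growth factor and binding protein genes 5 were higher and 3 lower (median 0.276). *Pdgfrb*, the other receptor of the family, differed by 0.16 (standard error 0.32) and the ligand *Pdgfc* by -0.15 (standard error 0.26). *Tgfbr1*, a receptor upstream of *Smad3*, differed by -0.19 (standard error 0.22) and the inhibitor *Smad7* by 0.16 (standard error 0.20). *Igfbp5*, a binding protein related to *Igfbp4*, had the largest fitted difference of the pathway lists: -1.22, 0.22, 0.42 and 1.13 in β-CB1R+/+ 1 to 4 against 1.71, 3.79 and 2.83 in β-CB1R-/- 1 to 3. Its groups did not overlap, and the log2 difference was 2.64 (standard error 0.63, limma adjusted p = 0.777). *Igf1r*, the receptor for the bound growth factors, differed by 0.33 (standard error 0.24).

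*Maf* and *Rest* are transcription factors. *Maf* encodes c-MAF, a relative of the beta cell factor MAFA that is used in other lineages. It was not well above background in β-CB1R+/+ 1, 2 and 3 (-3.46, -4.75 and -4.23) and gave -2.54 in β-CB1R+/+ 4, against -2.65, -2.79 and -3.30 in β-CB1R-/- 1 to 3. The difference was 0.83 (standard error 0.50, 95% interval -0.31 to 1.98), and it was 0.0313 after a normexp background correction, 0.499 without β-CB1R+/+ 2 and 1.24 without β-CB1R+/+ 4. As for *Pdgfra*, the control mice left in the last case were all not well above background (unadjusted limma p under 0.05, adjusted p = 0.971), so that value is no firmer. *Maf* and *Pdgfra* were the disallowed genes detected on 5 of the 8 arrays, the same arrays for both.

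*Rest* encodes the repressor of neuronal genes, whose absence from beta cells lets them use neuronal exocytosis genes. Its brighter probe gave -1.53, -2.43, -1.88 and -1.34 in β-CB1R+/+ 1 to 4 and -1.31, -1.38 and -2.52 in β-CB1R-/- 1 to 3, with a difference of 0.06 (standard error 0.38, 95% interval -0.82 to 0.93). The other probe correlated with it over the mice (r = 0.81) and differed by 0.24 (standard error 0.31). Both probes had their lowest 3 values in β-CB1R+/+ 2, β-CB1R+/+ 3 and β-CB1R-/- 3.

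Of 12 compared genes known as *Rest* targets 3 were higher and 9 lower, and of 8 corepressors that work with *Rest* 1 was higher and 7 lower, with 0 past the adjusted threshold in either list and medians of -0.214 and -0.101. The fit of 1 target, *Snap25*, left out β-CB1R+/+ 2, whose spot was an outlier. The granule proteins *Chgb* and *Scg2* differed in opposite directions. *Chgb* gave 8.15, 8.74, 8.44 and 8.25 against 9.02, 9.32 and 9.59, a difference of 0.91 (standard error 0.23, limma adjusted p = 0.831), and *Scg2* gave 9.42, 9.31, 9.29 and 9.10 against 8.45, 8.29 and 8.87, a difference of -0.74 (standard error 0.21, limma adjusted p = 0.999). Neither overlapped between the genotypes. Among the corepressors, *Rcor3* differed by -0.25 (standard error 0.24) and *Hdac2* by -0.17 (standard error 0.23). Of 6 other Maf family genes 4 were higher and 2 lower with 0 past the threshold (median 0.0594), among them *Maff* at 0.62 (standard error 0.68) and *Nrl* at 0.23 (standard error 0.32).

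Most of the 10 genes, though not *Hk1* and *Slc16a1*, varied together from mouse to mouse. Over the 45 pairs of the 10 genes, 41 correlations over the 7 mice were above 0, with a mean of 0.59 against 0.045 over all pairs of compared probes. These are descriptions over 7 mice that share their arrays and scaling. *Ldha*, *Oat*, *Igfbp4*, *Smad3*, *Acot7* and *Rest*, grouped after their values were seen, had correlations of 0.82 to 0.97 in their 15 pairs, with *Oat* and *Smad3* closest (0.97). *Pdgfra* and *Maf*, both with 3 values not well above background, formed the other close pair (r = 0.92), and *Acot7* stood between, with 0.86 to each of them. *Hk1* correlated at -0.17 to 0.48 with the other 9 and *Slc16a1* at -0.17 to 0.63. β-CB1R+/+ 2 was among the lowest 3 mice for 9 of the 10 genes, β-CB1R+/+ 3 for 8 and β-CB1R-/- 3 for 7, whereas β-CB1R+/+ 4 and β-CB1R-/- 1 were each among the highest 3 for 9.

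**Figure D3:**
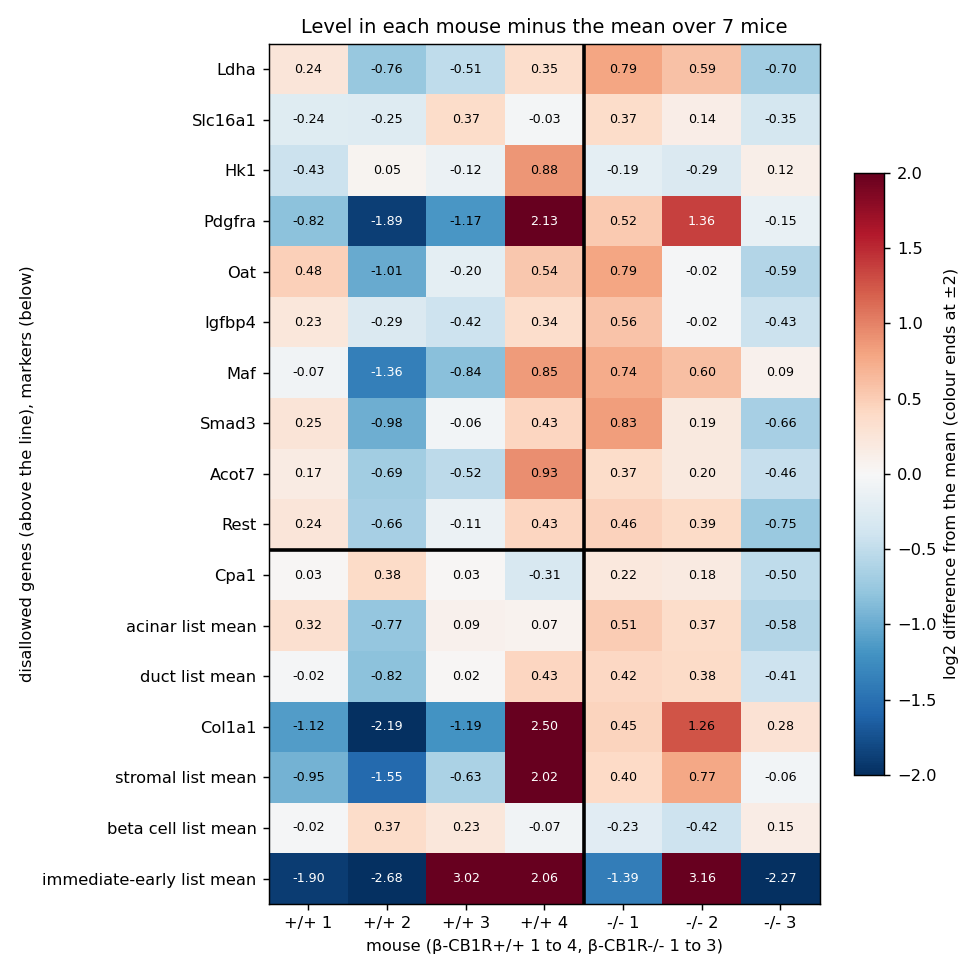
Level of each disallowed gene (above the line) and of exocrine, stromal, beta cell and immediate-early markers (below it) in each mouse, as the log2 difference from the mean over 7 mice, in numbers and colour. *Cpa1* is 0.38 above its mean in β-CB1R+/+ 2 where the mean of the acinar list is 0.77 below, and *Pdgfra* and *Col1a1* are both highest in β-CB1R+/+ 4.

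*Cpa1* encodes a carboxypeptidase that acinar cells secrete, and its level was used to follow acinar tissue on the islets. It gave 10.72, 11.07, 10.72 and 10.38 in β-CB1R+/+ 1 to 4 and 10.91, 10.87 and 10.19 in β-CB1R-/- 1 to 3, and did not differ between the genotypes past its error (difference -0.07, standard error 0.26). Correlations of the 10 genes with *Cpa1* ran from -0.53 (*Hk1*) to 0.37 (*Slc16a1*), 5 above and 5 below 0, with a median of 0.00. Of the 14 probes 0 had an exact permutation p under 0.05 after Benjamini-Hochberg adjustment over all compared probes (0% of them had one), and 1 had an unadjusted one (against 4.2%), the dimmer *Hk1* probe (r = 0.78, Spearman's rho 0.75, exact permutation p = 0.0381, adjusted p = 1.00). Within the β-CB1R+/+ mice the correlation was below 0 for the brightest probe of all 10 genes. Within the β-CB1R-/- mice it was above 0 for 9 of 10, *Hk1* being the exception. The dimmer *Hk1* probe was above 0 within both genotypes (0.60 and 0.98).

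*Cpa1* was not representative of the acinar genes. All 14 compared acinar markers were well above background on each array. The other 13, among them the elastase *Cela1* and the transcription factor *Rbpjl*, named here after their values were seen, each correlated at 0.92 to 1.00 with the mean of the remaining acinar genes, and *Cpa1* at 0.15. In β-CB1R+/+ 2, *Cpa1* was highest of all mice while *Cela1* (8.89, against 9.36 to 10.86 in the other mice) and *Rbpjl* (3.54, against 4.30 to 6.11) were lowest. The agreement of *Cpa1* with the other acinar genes turned on how the arrays were scaled: it was 0.89 after a normexp background correction, -0.96 after quantile normalisation and 0.71 in the deposited Z scores, and the SD of *Cpa1* over mice was 0.709, 0.221 and 0.188 in these and 0.309 in the main scaling. The correlation of *Ldha* with *Cpa1* moved with it, from 0.20 to 0.78 with normexp and -0.82 with quantile normalisation.

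With the mean of the 14 acinar genes, each centred, in place of *Cpa1*, 9 of the 10 correlations were above 0, with a median of 0.68 over the 10 genes against 0.21 over all compared probes. The acinar mean was 0.32, -0.77, 0.09 and 0.07 in β-CB1R+/+ 1 to 4 and 0.51, 0.37 and -0.58 in β-CB1R-/- 1 to 3, so that β-CB1R+/+ 2 and β-CB1R-/- 3 stood below the other mice. *Smad3* (r = 0.94), *Rest* (0.93), *Ldha* (0.88) and *Oat* (0.88) followed it most closely, and the brighter *Hk1* probe was the exception (-0.31), where the dimmer one gave 0.28. This measure correlated widely on these arrays: an unadjusted exact permutation p under 0.05 was reached by 27.3% of all compared probes and an adjusted one by 5.56%, against 6 and 2 of the 14 probes, the 2 being the dimmer *Ldha* probes (adjusted p = 0.0365 and 0.0425, but 0.093 and 0.103 when the exact permutation test used Spearman's rho, 0.96 and 0.93). Without β-CB1R+/+ 2 and β-CB1R-/- 3, the mice farthest from the median of the acinar mean, the correlation was 0.75 for *Ldha*, 0.61 for *Smad3*, 0.52 for *Rest* and 0.45 for *Oat*, and 0.07 for *Acot7*. Within each genotype the direction was the same as over all mice for the brightest probe of each of the 10 genes. These correlations with the acinar mean are given for the main scaling only. Most acinar genes were about as bright as *Cpa1*, whose correlations turned on the scaling, so no direction is claimed for other scalings. The 75th percentile subtracted from each array was highest for β-CB1R-/- 3 (intensity 362.1) and β-CB1R+/+ 2 (289.4), the 2 mice with the lowest acinar mean.

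**Figure D4:**
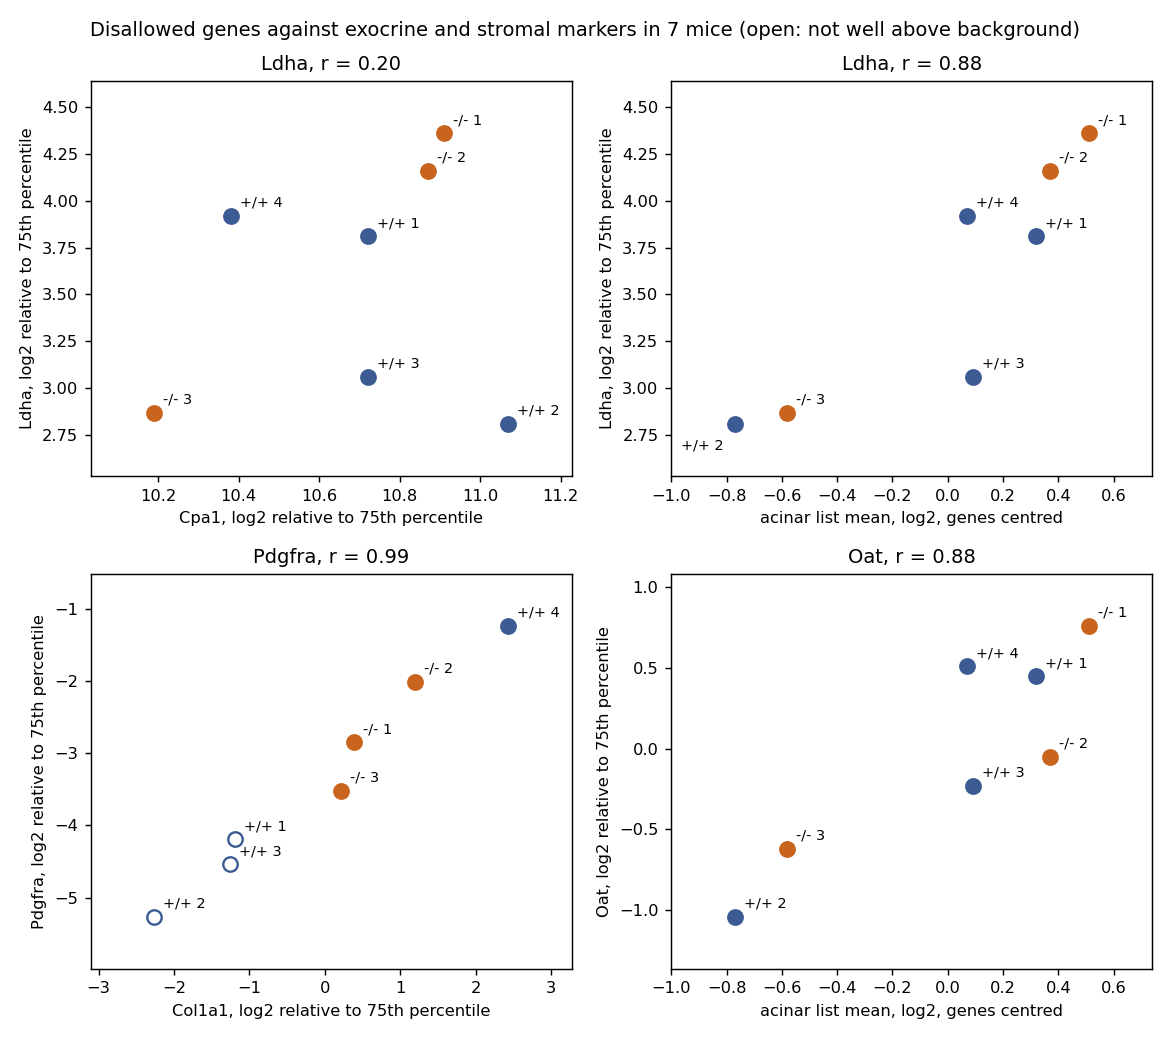
Levels in 7 mice of *Ldha* against *Cpa1* (r = 0.20) and against the acinar list mean (r = 0.88), of *Pdgfra* against *Col1a1* (r = 0.99) and of *Oat* against the acinar list mean (r = 0.88), all on the log2 scale. Blue points are β-CB1R+/+ and orange points β-CB1R-/- mice, and open points are not well above background. β-CB1R+/+ 2 lies at the right for *Cpa1* and at the left for the acinar list mean.

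*Col1a1*, a fibrillar collagen chain of fibroblasts and stellate cells, followed another order of mice. It gave -1.19, -2.26, -1.26 and 2.43 in β-CB1R+/+ 1 to 4 and 0.38, 1.19 and 0.21 in β-CB1R-/- 1 to 3, a 25.8-fold range, and its genotype difference of 1.17 had a standard error of 1.00. The 11 stromal genes each correlated with the mean of the others at 0.64 (*Acta2*) to 0.98, and *Col1a1* was at the upper end (0.98). By their brightest probes, all 10 disallowed genes correlated above 0 with *Col1a1*, with a median of 0.57 against -0.18 over all compared probes. The dimmer *Hk1* probe went the other way (-0.42, and -0.41 with the mean of the stromal genes).

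*Pdgfra* had r = 0.99 with *Col1a1* (Spearman's rho 1.00, exact permutation p = 0.000198, the smallest that 5040 pairings can give, adjusted p = 0.575). *Maf* had r = 0.90 (rho 0.96, exact permutation p = 0.00317, adjusted p = 0.784) and *Acot7* 0.81 (rho 0.93, exact permutation p = 0.0258, adjusted p = 0.784). These were the 3 of 14 probes with an unadjusted exact permutation p under 0.05 (against 4.66% of all compared probes), and 0 had an adjusted one (0% of all). For *Pdgfra* and *Maf* these values rest in part on β-CB1R+/+ 1, 2 and 3, where both probes were not well above background and their levels have no firm order. What was measured above background is that these 3 mice also had the lowest *Col1a1*, and that in the other 4 mice *Pdgfra* and *Col1a1* had 1 order, with β-CB1R+/+ 4 highest, then β-CB1R-/- 2, 1 and 3, while *Maf* was higher in β-CB1R-/- 1 than in β-CB1R-/- 2. Without β-CB1R+/+ 2 and 4, the mice farthest from the median of *Col1a1*, r was 0.40 for *Acot7*, which was well above background in all mice, so that its relation rested on those 2. For *Pdgfra* (0.97) and *Maf* (0.84) the same check left no control mouse above background and shows nothing of stability. With the mean of 11 stromal genes in place of *Col1a1*, r was 0.98, 0.86 and 0.83, with 3 of 14 probes under an unadjusted 0.05 (4.91% of all) and 0 under an adjusted 0.05 (0% of all). The limma difference of *Pdgfra* between the genotypes was 1.01, and -0.0108 with *Col1a1* as a covariate. With r = 0.99 between the 2 genes, this covariate takes up nearly any difference of *Pdgfra*, so the second value says nothing of its source.

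**Figure D5:**
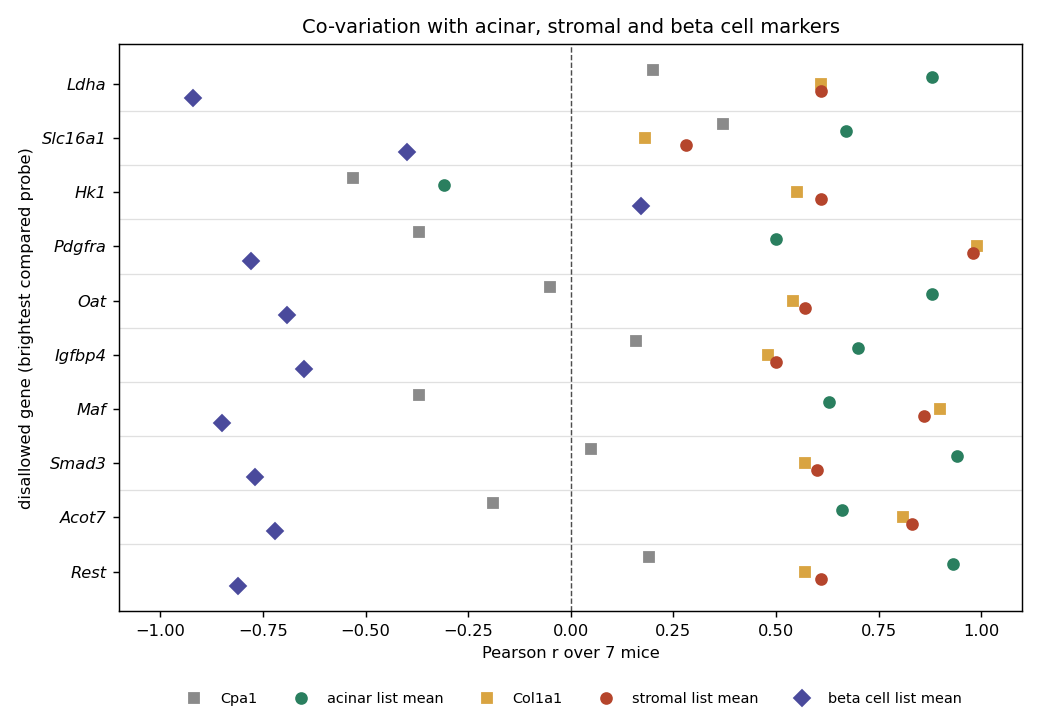
Pearson correlation over 7 mice (horizontal axis) of each disallowed gene with *Cpa1*, the acinar list mean, *Col1a1*, the stromal list mean and the beta cell list mean. *Pdgfra* and *Maf* lie farthest right for the stromal markers, *Ldha*, *Oat*, *Smad3* and *Rest* for the acinar list, and 9 of 10 genes lie left of 0 for the beta cell list.

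Markers of other cells gave further orders. The mean of 7 duct genes correlated above 0 with the brightest probe of all 10 disallowed genes (median 0.83 against 0.06 over all compared probes), while the dimmer *Hk1* probe gave -0.03. The duct mean had an unadjusted exact permutation p under 0.05 for 7 of the 10 genes, where 22.4% of all compared probes had one, and an adjusted one for 0. The duct genes did not all run one way: the median correlation with the 10 genes was above 0 for 5 of the 7, with the keratin *Krt19* highest (0.84), and below 0 for *Krt7* (-0.58) and *Cftr* (-0.45), named after their values were seen. The duct and acinar means themselves correlated at 0.90 over the mice, so their parts cannot be told apart here. The mean of 11 beta cell genes correlated below 0 with 9 of the 10 (median -0.74 against -0.10), with *Ldha* at -0.92. The median correlation with the 10 genes was below 0 for 8 of the 11, among them *Pdx1* (-0.80), *G6pc2* (-0.79) and *Mafa* (-0.75), and stayed below 0 for these 3 with normexp, quantile normalisation and the deposited Z scores, a check chosen after seeing the data. For the very bright hormone genes the sign turned on the scaling: *Ins2*, *Iapp* and *Ins1* gave 0.62, 0.48 and 0.47, but -0.55, -0.35 and -0.62 after quantile normalisation. Before scaling *Ins1* varied 1.21-fold over the mice and after it 1.77-fold, so no direction can be given for them. The mean of 8 alpha cell genes correlated below 0 with the brightest probe of all 10 (median -0.29 against 0.14), while the dimmer *Hk1* probe gave 0.38. In that alpha cell list 7 of 8 genes were lower in β-CB1R-/- islets, 4 of them at an unadjusted limma p under 0.05 (against 3.59% of all compared probes) and 0 at an adjusted one. The macrophage mean gave a median of -0.04 (against -0.21 over all compared probes) and the endothelial mean 0.32 (against -0.14). The Schwann cell mean correlated above 0 with the brightest probe of all 10 (median 0.38 against -0.16), highest with *Pdgfra* (0.83) and *Maf* (0.80), but 1 of its 5 genes was well above background on every array, and *Pdgfra* and *Maf* were not in β-CB1R+/+ 1, 2 and 3. The dimmer *Hk1* probe gave -0.60 with it. Immediate-early genes, which were high in β-CB1R+/+ 3 and 4 and β-CB1R-/- 2 (*Fos* 6.31, 5.34 and 5.84, against -1.59 to 0.75 in the others), gave a median of 0.32 (against -0.11). The part of each cell type in these patterns was not tested.

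Summed marker levels overlapped between the genotypes for 10 of the 11 cell type and state lists. The exception was the alpha cell list, whose sum lay between 9.94 and 10.36 on the log2 scale in β-CB1R+/+ and between 9.60 and 9.88 in β-CB1R-/- islets. The sums add levels before the log is taken, so the brightest genes make up most of them. These are *Gcg* for alpha cells, which overlapped between the genotypes by itself, and *Ins1*, *Ins2* and *Iapp* for beta cells. Of the 88 genes compared in these lists 4 did not overlap, a share near the 4.12% of all compared probes. They were the alpha cell genes *Ttr* and *Gc*, both lower in β-CB1R-/- islets, and *C1qb* of the macrophage list and *Ngfr* of the Schwann cell list, both higher. *Ngfr* was well above background on 1 of 4 β-CB1R+/+ arrays and on 4 of 4 β-CB1R-/- arrays, so its control values have no firm level. The summed acinar signal lay between 13.49 and 14.37 on the log2 scale in β-CB1R+/+ and between 13.51 and 14.51 in β-CB1R-/- islets, the stromal sum between 2.56 and 6.08 and between 4.17 and 4.92, and the beta cell sum between 11.96 and 12.36 and between 11.69 and 12.20. All 14 acinar, 7 duct, 11 beta cell, 8 alpha cell, 8 macrophage and 8 endothelial genes compared were well above background on every array, and 6 of the 11 stromal genes were. *Ins1* (10.78 to 11.23 and 10.41 to 11.05) and *Gcg* (9.71 to 10.12 and 9.43 to 9.73) were among the islet markers well above background on every array. No gene of these lists passed the adjusted threshold.

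A wider set of 20 genes described as disallowed in beta cells was set beside the 10. Of these, 17 were higher and 3 lower in β-CB1R-/- islets (median log2 fold change 0.346), 0 passed the adjusted threshold, and *Fgf1*, a fibroblast growth factor, had the smallest p (0.48, 1.55, 0.91 and 1.54 against 0.09, 0.40 and 0.58; difference -0.76, standard error 0.31, limma adjusted p = 0.999), followed by *Mgst1*, a glutathione transferase of membranes (difference 0.94, standard error 0.48). Their correlations had a median of -0.11 with *Cpa1*, 0.76 with the acinar mean, 0.81 with *Col1a1* and 0.83 with the stromal mean, and 19 of 20 were above 0 for each of the last 3. *Fgf1*, by its brighter probe, was the exception for the acinar mean (r = -0.60) and for *Col1a1* (r = -0.08). Its other probe ordered the mice differently (-1.75, -2.83, -2.56 and -2.48 against -2.10, -2.86 and -3.40). That probe differed by -0.38 (standard error 0.37), so the exception rests on 1 probe.

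The genes whose brightest probe was most like each disallowed gene over the 7 mice, among 16934 others, were *Foxd4* and *Celsr1* for *Ldha*, *Aebp1* and *Adamtsl4* for *Pdgfra*, *Kcnk6* and *Slc16a5* for *Oat*, *Vcl* and *St8sia6* for *Maf*, *Rab27b* and *Slc41a1* for *Smad3*, *Jag1* and *Synm* for *Acot7*, *Csrp2* and *Anp32a* for *Rest*, *Nrg3os* and *Tspan32* for *Igfbp4*, *Sparc* and *Oas1f* for *Hk1*, and *A630001G21Rik* and *Osgepl1* for *Slc16a1*. Their correlations lay between 0.960 (*Osgepl1*) and 0.997 (*Csrp2*), given as a description over 7 mice. Both matches of *Pdgfra* (0.996 each) rest in part on the same 3 *Pdgfra* values not well above background. All these are the highest among 16934 correlations over 7 mice, and no reference for such a maximum was computed.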

How the data were processed

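Islet RNA of 7 male mice was hybridised to 8 one-colour arrays. The deposited scanner files hold spot intensity from Feature Extraction 11.5.1.1, which the authors used to subtract the background and remove a spatial trend; the deposited series table holds a Z score per array (standardised log10 signal to within 0.00503). Here each intensity was taken as log2 minus the 75th percentile of its array, control and outlier spots were left out, spots of a probe and the repeat arrays of β-CB1R-/- 2 were averaged, and probes well above background in at least 3 mice were compared with limma 3.58.1 in R 4.3.3 (lmFit and eBayes, Benjamini-Hochberg adjustment). Genes were named from probe accessions through RefSeq (28026 probes matched). A gene with several probes is given by its brightest compared probe unless stated. Correlations over 7 mice had exact permutation tests over 5040 pairings (scipy 1.17.1), two-sided, with 20 relations of the 10 genes with *Cpa1* and *Col1a1*. The 10 genes and the gene lists were chosen with earlier results of these data known. All 10 were named, and in each partner list, since none passed the adjusted threshold, the 2 genes with the smallest limma p. Code was tested on simulated data. Alternatives were normexp background correction, quantile normalisation, the deposited Z scores, other filters, each repeat array alone, marker covariates, a replicate block, the methods' test and leaving out each mouse. The number of arrays limits the precision.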

Additional observations from a re-analysis of the deposited data

How the results depend on the processing

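No disallowed gene passed the adjusted threshold for the genotype difference under any alternative run. Of 263 recomputed fold changes 236 kept their direction, as did 114 of 140 correlations with *Cpa1* and 137 of 140 with *Col1a1*. The 43 probes past the adjusted threshold became 23 with no filter on dim probes, 24 with detection on all arrays, 27 with *Cpa1* and 9 with *Col1a1* as a covariate, 0 with the methods' test (1412 at an unadjusted p under 0.05), 0 with the replicate block (1714 unadjusted), and 0 to 42 when 1 mouse was left out (0 without β-CB1R-/- 2, 5 without β-CB1R+/+ 3 or β-CB1R-/- 3, 15 without β-CB1R+/+ 2, 19 without β-CB1R+/+ 4, 22 without β-CB1R+/+ 1). Disallowed probes with an unadjusted limma p under 0.05 numbered 2 with the replicate block (4.38% of all compared probes) and 0 to 2 when 1 mouse was left out, and those without overlap 0 to 2; the 2 were *Pdgfra* and *Maf* without β-CB1R+/+ 4 (where 3.93% of all passed and 8.14% did not overlap), and 2 *Ldha* probes lost their overlap without β-CB1R-/- 3 (where 26.0% of all did not overlap). The labels do not say whether the replicate numbers pair the mice. Deviations of same-numbered mice correlated at 0.422, -0.273 and -0.062, against -0.37 to 0.5 for other numbers, which cannot settle it. The block removes the unpartnered β-CB1R+/+ 4. With the acinar mean in place of *Cpa1*, 2 probes, both of *Ldha*, in place of 0 passed the adjusted threshold of the correlation.

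Fold changes that changed sign were *Slc16a1* (-0.0132) and *Acot7* (-0.0116) with normexp, *Igfbp4* (-0.0151) with 1 repeat array alone, *Hk1* (0.0471) with the replicate block, and with *Col1a1* as a covariate *Pdgfra* (-0.0108), *Oat* (-0.174), *Igfbp4* (-0.0796), *Smad3* (-0.0618), *Acot7* (-0.325) and *Rest* (-0.187). Leaving out 1 mouse gave ranges of 0.114 to 0.859 for the brightest *Ldha* probe (0.114 without β-CB1R-/- 1, 0.859 without β-CB1R-/- 3), 0.531 to 1.87 for *Pdgfra*, 0.499 to 1.24 for *Maf*, -0.0462 to 0.619 for the dimmest *Ldha* probe, -0.0755 to 0.284 for *Slc16a1*, -0.389 to 0.0471 for *Hk1*, -0.258 to 0.435 for *Oat*, -0.191 to 0.305 for *Igfbp4*, -0.147 to 0.598 for *Smad3*, -0.155 to 0.385 for *Acot7* and -0.156 to 0.449 for *Rest*.

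Correlations with *Cpa1* that changed sign were those of *Pdgfra* (0.52), *Oat* (0.68), *Maf* (0.69) and *Acot7* (0.44) with normexp, *Ldha* (-0.82), *Igfbp4* (-0.59), *Smad3* (-0.88) and *Rest* (-0.83) with quantile normalisation, *Slc16a1* (-0.39) and *Oat* (0.23) in the deposited Z scores, and *Pdgfra* (0.50), *Oat* (0.88), *Maf* (0.63) and *Acot7* (0.66) with the acinar mean. Leaving out 1 mouse gave -0.25 to 0.65 for *Ldha*, -0.02 to 0.71 for *Slc16a1*, -0.54 to 0.49 for *Oat*, -0.31 to 0.41 for *Igfbp4*, -0.56 to 0.02 for *Maf*, -0.47 to 0.67 for *Smad3*, -0.68 to 0.20 for *Acot7* and -0.53 to 0.68 for *Rest*. With *Col1a1*, *Slc16a1* changed sign with normexp (-0.15), and leaving out 1 mouse gave -0.05 to 0.46 for it and -0.20 to 0.73 for *Hk1*. The cause was not tested. *Pdgfra* and *Maf* were near background in 3 of 4 β-CB1R+/+ mice, which limits their lower values, and with normexp their differences were 0.118 and 0.0313. No slide or scan block could be fitted, as all arrays shared 1 slide and 1 scan.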
